A study of Mus musculus with 2 samples.

Results

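The spliceosome and splicing factor genes of cultured mouse brain pericytes (PCs) were compared between a passage 5 (PC5) and a passage 20 (PC20) culture. Members were taken by gene symbol and not by any measured value. These were symbols starting with *Hnrnp*, or with *Srsf*, *Sf3a*, *Sf3b* or *Lsm* and a number. *Snrp* symbols entered where a letter from a to g or a number followed, so *Snrpn* does not match the rule. Names marked as pseudogenes were left out. The choice of these families was made with earlier results of these data known. The rule gave 64 of the 31053 listed genes, of which 20 were *Hnrnp*, 11 *Srsf*, 11 *Snrp*, 9 *Sf3* and 13 *Lsm* genes. PCs are the mural cells that wrap brain capillaries, and the study asked how far cultured PCs keep their identity. Cells came from the brains of 6 female wild type C57BL/6N mice of 6 to 8 weeks per isolation, with the brains pooled, and were cultured for 5 or 20 passages. Neither group carried a transgene or a treatment. The paper's methods state that each passage came from its own isolation, so that passage and isolation cannot be told apart. The series' design text can be read as a single isolation. With 1 library per passage the differences have no replicate check and no test between passages was made.

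Splicing removes introns from pre-mRNA. The spliceosome is built on small nuclear ribonucleoproteins (snRNPs), each a small nuclear RNA with proteins around it. Sm proteins form a ring on the U1, U2, U4 and U5 snRNAs, and LSm proteins form a related ring on the U6 snRNA. The SF3a and SF3b complexes belong to the U2 snRNP and help it to bind the branch point of the intron. SR proteins, encoded by *Srsf* genes, and heterogeneous nuclear ribonucleoproteins (hnRNPs) bind the transcript itself and shift which exons are kept, often in opposite directions. Most of these genes are used by every cell type, and many SR protein and hnRNP genes limit their own mRNA through exons that send it to decay, which 3′ end counts do not show.

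Cells were kept above 1000 genes and below 20% mitochondrial UMIs. PC5 then had 9950 cells and 223054273 unique molecular identifiers (UMIs, counts of captured RNA molecules), and PC20 had 4749 cells and 191122251 UMIs. The median cell held 21700 UMIs in PC5 and 33424 in PC20, and 20 barcodes occurred in both libraries. Of the 6 pericyte markers, 4 were above 1 CPM (UMIs per 1000000) in PC5 and 2 in PC20, their summed level was 53.9 CPM in PC5 against 8.53 CPM in PC20, and *Abcc9* was at 3 or fewer UMIs in both libraries, as were *Rgs5* and *Kcnj8* in PC20. The 4 fibroblast markers summed to 1302 CPM in PC5 against 101 CPM in PC20. The 3 epithelial markers, with *Krt8* and *Krt18*, summed to 0.211 and 1012 CPM, and 2 of them were above 1 CPM in PC20. Smooth muscle markers summed to 283 CPM in PC5 and 49.5 CPM in PC20, endothelial ones to 186 and 74.0 CPM and astrocyte ones to 151 and 229 CPM. Above 1 CPM in PC5 were 2 of 3 smooth muscle, 2 of 4 endothelial and 2 of 4 astrocyte markers. In PC20 only 1 gene of each of these lists was above 1 CPM, so these sums rest on few genes. Within the endothelial and the astrocyte lists the genes did not share a direction between the libraries. Both libraries thus went against their cell type label in part of their markers, PC5 in its fibroblast sum and PC20 in its low pericyte and high epithelial sums. The part of this in the differences given here was not tested. Cell cycle genes were also higher in PC20, in 36 of 42 S phase list genes and 49 of 52 G2M list genes.

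Levels are given as CPM, the UMIs of a gene per 1000000 UMIs summed over the kept cells of a library. A UMI stands for the 3′ end of 1 transcript, so levels of different genes were compared without division by length. The log2 ratio sets PC5 CPM over PC20 CPM, so that values above 0 are higher in PC5. Intervals are at the 95% level and cover counting error only. A gene was called expressed when its UMIs occurred in 10% or more of cells in PC5 or in PC20, which held for 10504 genes and 63 of the 64 members.

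All 64 members had UMIs in both libraries. The member outside the expressed genes was *Srsf12*, a tissue-restricted SR protein relative of *Srsf10*, with 46 UMIs in PC5 and 8 in PC20. Its log2 ratio of 2.30 had an interval from 1.20 to 3.60. Together the members made up 0.850% of all UMIs in PC5 and 0.921% in PC20. The share per cell had a median of 0.815% in PC5 and 0.925% in PC20, and the middle 50% of cells overlapped, from 0.658% to 0.996% and from 0.780% to 1.08%. With every cell thinned to the same number of UMIs, where 1103 cells of PC5 and 275 of PC20 were too shallow and dropped, the medians were 0.810% and 0.924%, and the median cell showed 37 members in PC5 and 40 in PC20. In 4 equal bins of cells by depth the share ran from 0.813% to 0.879% in PC5 and from 0.896% to 0.965% in PC20, so every PC20 bin lay above every PC5 bin.

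**Figure D1:**
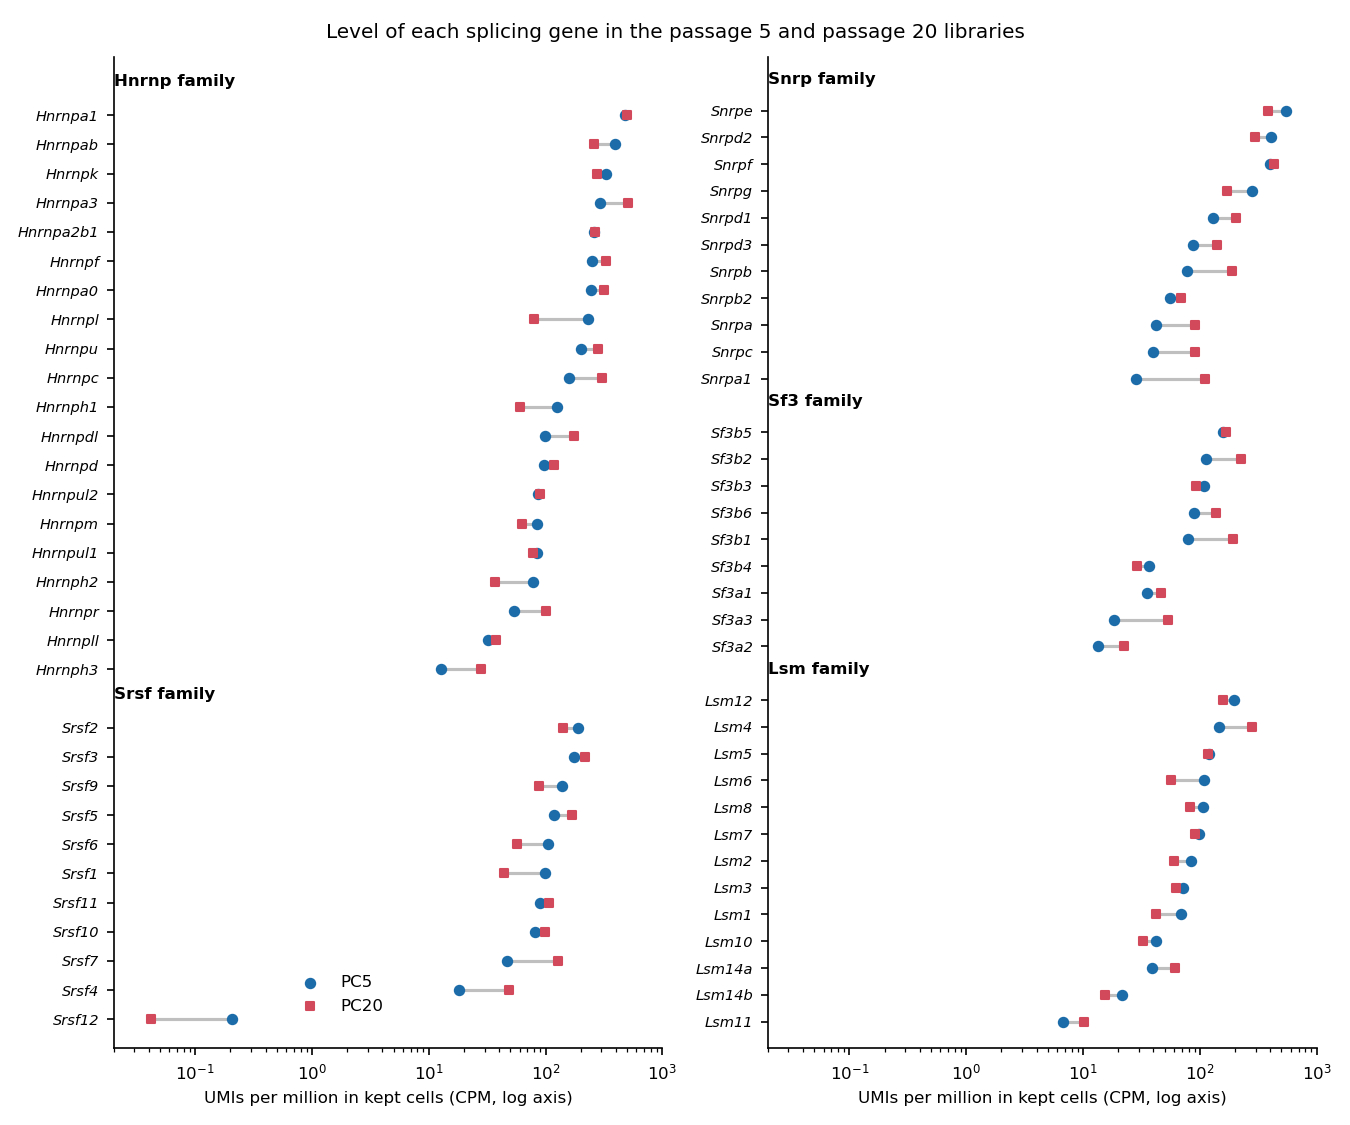
Level of each of the 64 members in CPM on a log axis, by family, with circles for PC5 and squares for PC20 (1 library each, no error bars). *Hnrnpl* has its PC5 circle far to the right of its PC20 square and *Snrpa1* the reverse, while *Srsf12* sits below 1 CPM in both.

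Sorted by size, 4 of the 63 expressed members (6.35%) had a log2 ratio above 1, where 17.9% of all expressed genes did. Below -1 were 9 members (14.3%), against 19.1% of all expressed genes. Within 0.5 of 0 were 30 members (47.6%), against 37.1%. Above 0.5 were 11 members (17.5%), against 30.2%, and below -0.5 were 22 (34.9%), against 32.7%. The share of members on the PC5 side was below that of all genes. On the PC20 side the reading depends on which genes form the background: among genes with UMIs in 10% or more of the cells of both libraries, 14.1% lay below -1 and 28.0% below -0.5, while the member counts were the same. Of these genes 41.8% lay within 0.5 and 15.5% above 1, both nearer to the shares of the members, and 30.2% lay above 0.5. In all 26 members were higher in PC5 and 37 (58.7%) were higher in PC20, where 51.1% of all expressed genes were higher in PC20. This 51.1% is the background of every such split given here for a family or list. The median log2 ratio of the members was -0.24, and that of all expressed genes was -0.03.

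Those above 1 were hnRNP genes and an SR protein gene. *Hnrnpl*, whose protein binds CA-rich RNA (ENSMUSG00000015165, chr7:28808541-28822266, plus strand, GRCm38), had 230.7 CPM in PC5 against 80.0 CPM in PC20. This was the highest log2 ratio of the expressed members, at 1.53. *Hnrnpl* had UMIs in 93.6% of cells in PC5 against 86.7% in PC20, or in 87.9% and 56.2% after thinning. The cultures hold no cell type that should lack these genes, so a background share could not be read. *Srsf1*, the archetypal SR protein (ENSMUSG00000018379, chr11:88047373-88053755, plus strand), had 99.1 CPM in PC5 against 44.2 CPM in PC20, a log2 ratio of 1.16. *Hnrnph1* and *Hnrnph2*, which encode closely related G-tract binding proteins, had log2 ratios of 1.05 and 1.08.

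The 9 members below -1 encode snRNP, SF3 and SR proteins and 1 hnRNP. *Snrpa1*, which encodes a leucine-rich protein of the U2 snRNP (ENSMUSG00000030512, chr7:66059003-66074587, plus strand), had 28.7 CPM in PC5 against 110.9 CPM in PC20. It was 3.87-fold higher in PC20, with a log2 ratio of -1.95 (interval -1.99 to -1.91). Its UMIs occurred in 42.0% of cells at passage 5 against 90.9% at passage 20, or in 24.6% and 67.1% after thinning. *Sf3a3*, an SF3a subunit (ENSMUSG00000028902, chr4:124714776-124732460, plus strand), had 18.5 CPM in PC5 against 53.1 CPM in PC20, a log2 ratio of -1.52. The SR protein genes *Srsf7* and *Srsf4* each had a log2 ratio of -1.43, with 47.1 and 127.2 CPM for *Srsf7* and 18.2 and 49.0 CPM for *Srsf4*. The others below -1 were *Sf3b1* at -1.30, *Snrpb* at -1.29, *Snrpc* at -1.22, *Hnrnph3* at -1.14 and *Snrpa* at -1.13.

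**Figure D2:**
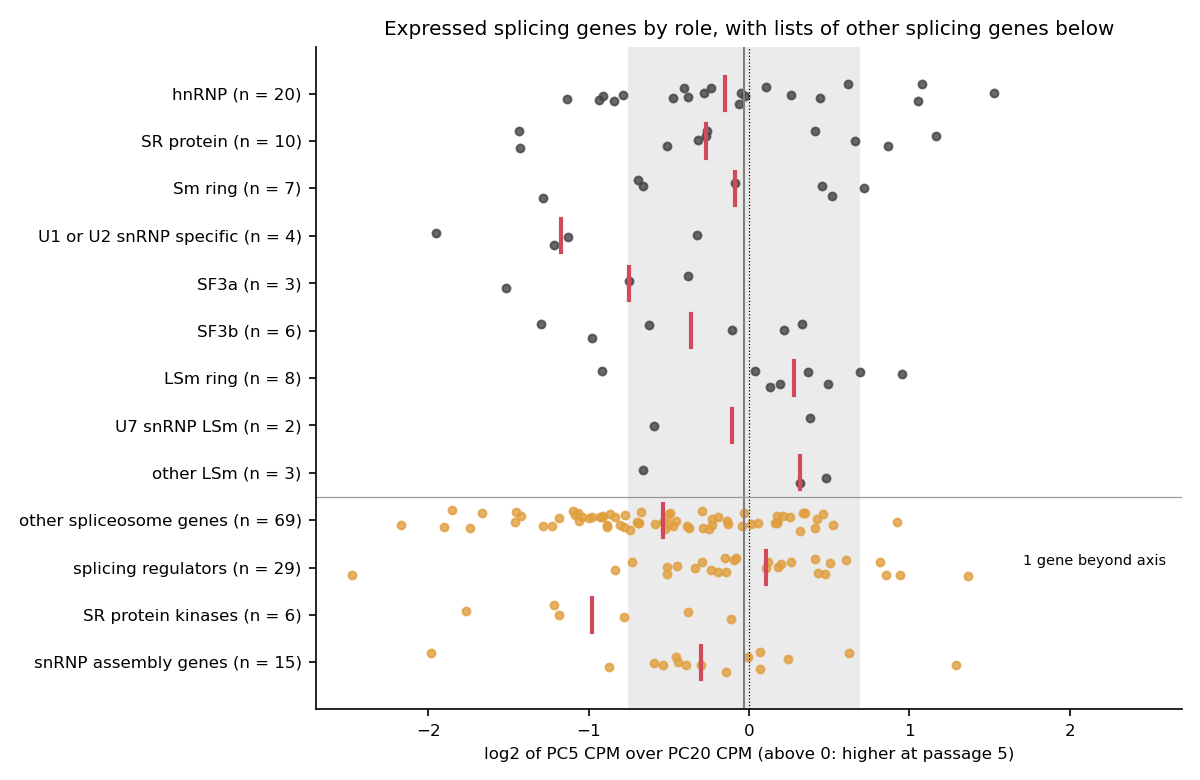
Log2 ratio, PC5 over PC20, of each expressed member by role (dark points) and for the lists of other splicing genes (light points), with the median of each row as a red bar, and the middle 50% and the median of all 10504 expressed genes as a grey band and line. All points of the U1 or U2 specific *Snrp* genes, the SF3a genes and the SR protein kinases lie below 0, and 7 of 8 LSm ring points lie above it.

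The 7 Sm ring genes, whose proteins are parts of the same ring, had ratios on both sides of 0. The *Snrpg*, *Snrpe* and *Snrpd2* genes were higher in PC5, with log2 ratios of 0.72, 0.52 and 0.45. *Snrpf* was near 0 at -0.09. *Snrpd1* at -0.66, *Snrpd3* at -0.70 and *Snrpb* at -1.29 were higher in PC20. The levels within the ring were also uneven. *Snrpe* had 548.9 CPM in PC5 against 384.1 CPM in PC20, where *Snrpb* had 76.9 and 188 CPM. The ratio of *Snrpe* to *Snrpb* levels was therefore much larger in PC5. Cell Ranger counts only reads that fit 1 gene, so genes with processed pseudogene copies can lose reads, and the levels of such members are uncertain.

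The 4 *Snrp* genes outside the Sm ring, which encode proteins specific to the U1 or U2 snRNP, were all higher in PC20. *Snrpc*, which encodes a U1 protein, had 39.4 CPM in PC5 against 91.7 CPM in PC20. *Snrpa*, for another U1 protein, had 41.8 and 91.6 CPM. *Snrpb2*, for a U2 protein, differed less, with 55.3 CPM in PC5, 69.4 CPM in PC20 and a log2 ratio of -0.33. With *Snrpa1* the median of these 4 genes was -1.18. The 11 *Snrp* members together had a median of -0.66, with 3 genes higher in PC5 and 8 in PC20. Yet their summed UMIs gave a log2 ratio of only -0.05, with the abundant *Snrpe* and *Snrpd2* higher in PC5 and the as abundant *Snrpf* near 0.

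SF3a genes followed the PC20 side too, while SF3b genes ran in both directions. All 3 SF3a genes were higher in PC20, from *Sf3a1* at -0.38 through *Sf3a2* at -0.75 to *Sf3a3*. Of the 6 SF3b genes 4 (66.7%) were higher in PC20, against 51.1% of all expressed genes. Below -1 was 1 of them (16.7%), against 19.1%. *Sf3b1*, the scaffold of the complex and a gene often mutated in myelodysplastic syndromes, had 78.7 CPM in PC5 against 193.9 CPM in PC20. *Sf3b2* had 113.5 and 224.3 CPM, a log2 ratio of -0.98. *Sf3b6*, whose protein touches the branch point adenosine, was at -0.62 and *Sf3b5* at -0.11. *Sf3b3* at 0.22 and *Sf3b4* at 0.33 were higher in PC5. Summed over the 9 genes, this family had the largest difference of the 5 families, with 649.4 CPM in PC5 against 967.5 CPM in PC20 (log2 ratio -0.58, interval -0.59 to -0.57). The summed log2 ratios were -0.12 for *Hnrnp*, -0.05 for *Srsf* and 0.06 for *Lsm*.

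Over all cells, LSm ring genes leaned to PC5 in sign but not in size. The proteins LSm2 to LSm7 are shared by the nuclear ring, which LSm8 completes on U6 snRNA, and by the cytoplasmic ring, which LSm1 completes for mRNA decay. Of the 8 genes, 7 were higher in PC5, with a median of 0.28. Above 0.5 were 2 (25.0%), against 30.2% of all expressed genes, and above 1 were 0, against 17.9%. *Lsm3*, *Lsm5* and *Lsm7* did not keep their sign in all cell cycle list groups, as given below. In the low group defined there, sizes were larger for *Lsm2* at 1.08, *Lsm3* at 0.82, *Lsm1* at 0.78 and *Lsm8* at 0.51. *Lsm6* was at 0.79, *Lsm7* at 0.04, *Lsm5* at -0.03 and *Lsm4* at -0.89 in that group. The share of all expressed genes past 0.5 in the low group was not counted. *Lsm6* had 109.1 CPM in PC5 against 56.4 CPM in PC20, a log2 ratio of 0.95, and *Lsm1* had 68.5 and 42.4 CPM, a log2 ratio of 0.69. *Lsm4* was the exception, at 147.2 CPM in PC5 against 277.5 CPM in PC20 with a log2 ratio of -0.91. The remaining 5 lay within 0.5, at 0.49 for *Lsm2*, 0.37 for *Lsm8*, 0.19 for *Lsm3*, 0.13 for *Lsm7* and 0.04 for *Lsm5*, which turned to -0.04 with thinned cells. The U7 snRNP, which cuts the 3′ ends of histone pre-mRNAs, has LSm10 and LSm11 in place of SmD1 and SmD2. *Lsm10* had 42.4 CPM in PC5 against 32.6 CPM in PC20, and *Lsm11*, the least abundant expressed member in PC5, had 6.75 and 10.2 CPM. Of the other LSm genes, *Lsm12* was at 0.32, *Lsm14b* at 0.48 and *Lsm14a* at -0.66.

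The hnRNP genes ran in both directions. *Hnrnpa1*, a silencer of exons and the first of its family in PC5, had 476.7 CPM in PC5 against 498.0 CPM in PC20. *Hnrnpa3* had 292.0 and 504.4 CPM, a log2 ratio of -0.79, and *Hnrnpc*, which binds uridine tracts, had 157.9 and 302.4 CPM, a log2 ratio of -0.94. *Hnrnpr* at -0.91 and *Hnrnpdl* at -0.84 also lay on that side. On the PC5 side, next to *Hnrnpl*, was *Hnrnpab*, with 395.0 CPM in PC5, 258.1 CPM in PC20 and a log2 ratio of 0.61. *Hnrnpk* had 331.2 and 276.6 CPM, and *Hnrnpf* 249.8 and 331.7 CPM. Over the 20 hnRNP genes 7 were higher in PC5 and 13 in PC20, with a median of -0.15.

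The 10 expressed SR protein genes also ran in both directions, with 4 higher in PC5, 6 in PC20 and a median of -0.27. Next to *Srsf1*, the genes *Srsf6* at 0.86 and *Srsf9* at 0.66 were on the PC5 side, as was *Srsf2*, the most abundant one in PC5, with 188.1 CPM in PC5 against 141 CPM in PC20. *Srsf3*, the most abundant one in PC20, had 174.0 CPM in PC5 against 217.3 CPM in PC20. *Srsf5*, with 117.8 and 167.8 CPM, was at -0.51.

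Where members are closely related or act as alternatives, the share of the first gene in the UMIs of the pair gives the balance within a library, which the library total does not enter. For *Srsf4* against *Srsf6* this share was 14.8% in PC5 (interval 14.4 to 15.3) and 46.1% in PC20 (interval 45.4 to 46.8), the widest difference of the 14 pairs. *Hnrnpl* made up 87.7% of the pair with its paralog *Hnrnpll* in PC5 and 67.8% in PC20. *Srsf3* made up 78.7% of the pair with *Srsf7* in PC5 and 63.1% in PC20. In the opposite direction, *Lsm14a* held 64.3% of the *Lsm14a* and *Lsm14b* pair in PC5 and 79.9% in PC20, and *Snrpa* held 43.0% and 56.9% of the pair with *Snrpb2*. Of the remaining pairs, the first gene held less in PC20 for *Lsm10* with *Snrpd1* (24.7% and 13.7%) and *Hnrnpd* with *Hnrnpdl* (49.8% and 40.3%). So it did for *Srsf1* with *Srsf9* (41.8% and 33.7%), *Lsm1* with *Lsm8* (39.1% and 33.9%) and *Hnrnpul1* with *Hnrnpul2* (49.2% and 46.5%). *Lsm11* with *Snrpd2* went the other way (1.65% and 3.34%). Nearly like shares in both libraries were seen in few pairs. *Hnrnph1* held 61.3% and 61.8% of the pair with *Hnrnph2*, although both genes were over 2-fold higher in PC5, and *Hnrnpa1* held 64.8% and 65.3% of the pair with *Hnrnpa2b1*.

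Because cell cycle genes differed between the libraries, members were also compared among the cells of each library. Cells thinned to this depth were sorted by their UMIs of an S phase list and of a G2M list, none of which are members. The top 20% for a list formed the S and G2M groups, a cell in both going to G2M, and cells at or below both medians formed the low group. The low, S and G2M groups held 3844, 798 and 1762 cells in PC5 and 1829, 573 and 893 cells in PC20. These groups are ranges of a score and not cell types. In PC5, 684 cells lay within 1 UMI of the S list limit and 169 of the G2M limit, and in PC20 321 and 60. The share of UMIs from members was 0.674% in the low group, 0.988% in the S group and 1.07% in the G2M group of PC5, and 0.784%, 1.08% and 1.09% in PC20. It was higher in the S and G2M groups than in the low group of both libraries.

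Single members followed the sum. In PC5, 33 of the 63 expressed members had a log2 ratio of the S group over the low group above 0.5, against 18.6% of all genes tested, and 0 had one below -0.5, against 6.62%. For the G2M group of PC5 these were 46 members against 21.4%, and 0 against 8.11%. In PC20 they were 28 members against 15.2% and 0 against 10.4% for the S group. For the G2M group of PC20 they were 28 against 13.1% and 0 against 10.8%. The median log2 ratio of the members was 0.52 and 0.62 for the S and G2M groups of PC5 and 0.45 and 0.48 for those of PC20, where all genes had medians of 0.12, 0.14, 0.07 and 0.02. Above 0 in all 4 comparisons were 58 of the 63 members, against 34.5% of the genes with a value in all 4, and above 0.5 in all 4 were 20, against 6.81%. Above 1 in all 4 were 4 members, *Lsm2*, *Lsm3*, *Lsm11* and *Srsf7*, against 3.45%. The S and G2M comparisons of a library share its low group.

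*Lsm3* and *Lsm2* had the highest ratios of the expressed members in 3 of the 4 comparisons, while *Lsm11*, *Hnrnpd* and *Srsf7* were above them in the S group of PC5. *Lsm3* had 39.5 CPM in the low group of PC5, 91.9 CPM in the S group and 129.1 CPM in the G2M group, and 22.4, 104.4 and 102.8 CPM in the same groups of PC20. Its log2 ratio of the S group over the low group was 1.22 in PC5 (interval 1.09 to 1.34) and 2.22 in PC20 (interval 2.04 to 2.40). *Lsm2* had 49.9, 115.4 and 138.3 CPM in the low, S and G2M groups of PC5 and 23.6, 95.2 and 95.1 CPM in those of PC20. Both genes sat lower in the low group of PC20 than in that of PC5, and the libraries lay nearer to each other in the S and G2M groups. *Lsm5* had log2 ratios of the G2M group over the low group of 1.41 in PC5 and 1.29 in PC20, and *Lsm8* 0.99 and 1.07. *Srsf7*, an SR protein that also takes part in mRNA export, had 1.32 and 1.11, and *Hnrnpd*, which binds AU-rich mRNAs, had 1.25 and 0.78.

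The U7 pair parted. *Lsm11* had 4.01 CPM in the low group, 11.7 in the S group and 9.78 in the G2M group of PC5, on 162, 98 and 181 UMIs. Its partner *Lsm10* had 41.1, 41.5 and 38.7 CPM in the same groups of PC5, and 35.4, 29.8 and 29.5 CPM in those of PC20. *Lsm10* was among the 5 members below 0 in any of the 4 comparisons, with *Srsf5*, *Snrpb2*, *Lsm7* and *Hnrnph2*. *Snrpd2*, whose Sm protein LSm11 replaces, had log2 ratios of 0.01 and 0.07 in PC5 and 0.20 and 0.04 in PC20, and the SmD1 gene *Snrpd1* had 0.70, 0.93, 0.65 and 0.61.

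**Figure D3:**
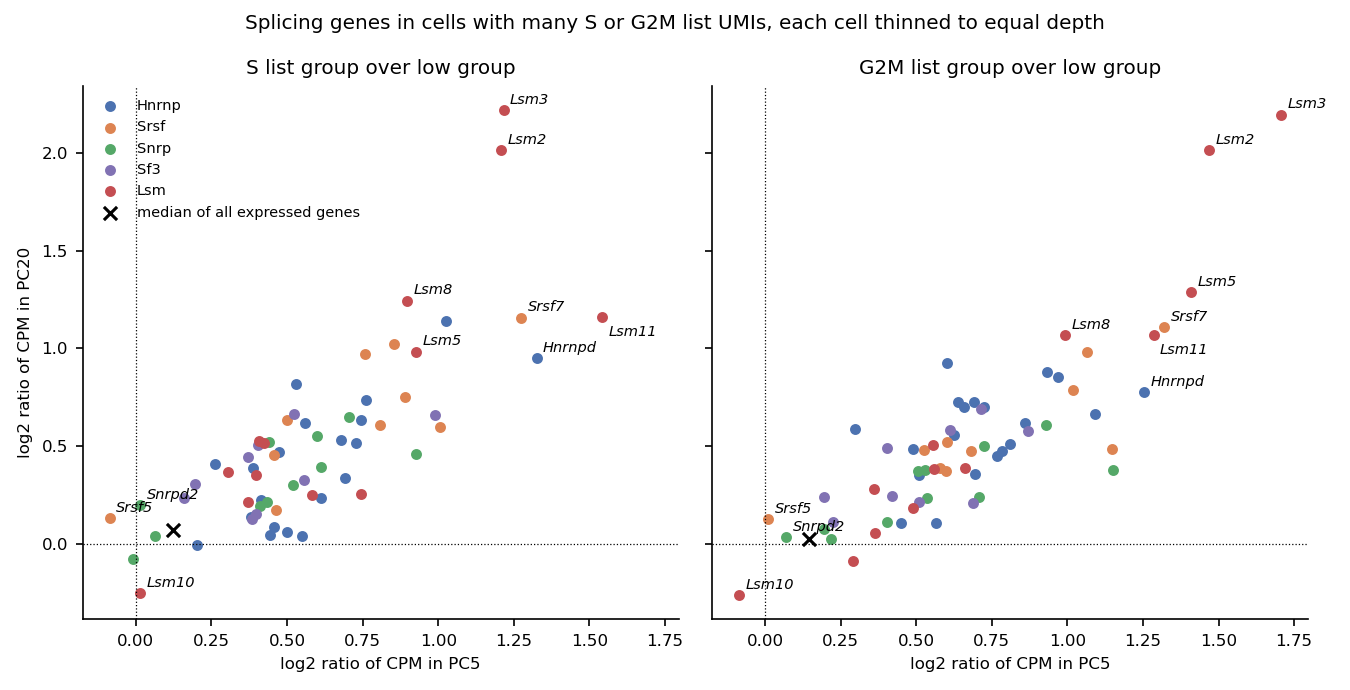
Log2 ratio of CPM in the S list group (left) and the G2M list group (right) over the low group, in PC5 (x axis) and PC20 (y axis), with 1 point per expressed member coloured by family and a cross for the median of all genes. *Lsm2* and *Lsm3* stand above the other members near 2 on the PC20 axis, and *Lsm10* lies near or below 0.

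Sequences before the start sites of the 6 *Lsm* and *Srsf* genes with the highest mean log2 ratio over the 4 cell group comparisons are shown here. Each of these genes was higher in the S and G2M groups of both libraries, as were 58 of the 63 expressed members. Genes of the other families, such as *Hnrnpd*, did not enter this choice. They are from RefSeq on GRCm38.p6, 5′ to 3′ on the strand of the gene, and end before both the RefSeq start and the first base of the gene in GENCODE M21. They lie at chr17:34981654-34981853 (plus strand) for *Lsm2*, chr6:91515785-91515927 (plus) for *Lsm3*, chr6:56704711-56704910 (minus) for *Lsm5*, chr6:18848385-18848578 (plus) for *Lsm8*, chr11:45944936-45945135 (minus) for *Lsm11* and chr17:80207308-80207507 (minus) for *Srsf7*. Capitals mark letters of a searched motif on either strand.
Lsm2: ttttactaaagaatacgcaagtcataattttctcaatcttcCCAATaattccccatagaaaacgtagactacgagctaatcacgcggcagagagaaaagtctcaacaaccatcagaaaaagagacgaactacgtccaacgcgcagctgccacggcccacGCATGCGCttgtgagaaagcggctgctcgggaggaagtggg
Lsm3: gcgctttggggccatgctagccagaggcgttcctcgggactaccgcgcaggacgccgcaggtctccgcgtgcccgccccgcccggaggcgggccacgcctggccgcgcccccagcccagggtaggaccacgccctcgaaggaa
Lsm5: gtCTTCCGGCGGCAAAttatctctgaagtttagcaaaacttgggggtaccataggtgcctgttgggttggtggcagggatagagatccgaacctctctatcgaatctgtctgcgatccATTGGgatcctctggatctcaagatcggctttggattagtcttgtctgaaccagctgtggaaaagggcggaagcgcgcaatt
Lsm8: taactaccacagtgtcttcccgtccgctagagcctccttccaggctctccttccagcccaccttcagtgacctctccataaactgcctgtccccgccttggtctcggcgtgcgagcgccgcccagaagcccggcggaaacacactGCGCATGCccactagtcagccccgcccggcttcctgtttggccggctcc
Lsm11: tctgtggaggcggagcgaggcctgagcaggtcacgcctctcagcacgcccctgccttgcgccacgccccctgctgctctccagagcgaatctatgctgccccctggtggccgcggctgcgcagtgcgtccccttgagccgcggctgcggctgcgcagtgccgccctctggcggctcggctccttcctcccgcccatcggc
Srsf7: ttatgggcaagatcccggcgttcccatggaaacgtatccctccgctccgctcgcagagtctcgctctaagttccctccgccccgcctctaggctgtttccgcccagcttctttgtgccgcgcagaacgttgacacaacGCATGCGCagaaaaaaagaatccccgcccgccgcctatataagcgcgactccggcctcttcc

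The motifs were searched on both strands in the 250 bases before each RefSeq start, over 32851 windows of the table, of which 71 belonged to 55 of the members. The letters CCAAT of the CCAAT box were in 42.3% of the members' windows and 33.8% of all windows. CCGGAAG, as bound by ETS factors, was in 28.2% and 6.91%. GCGCATGC of the NRF1 motif was in 8.45% and 2.26%, in 6 of the 71 windows. The E2F letters TTTCCCGC, TTTCGCGC, TTTGCCGC or TTTGGCGC were also in 8.45%, against 1.86% of all windows. TTTGAA, the cell cycle homology region, was in 9.86% and 15.99%, and the E-box CACGTG in 7.04% and 6.02%. In the printed sequences the NRF1 letters occur in *Lsm2*, *Lsm8* and *Srsf7*, the E2F and ETS letters overlap by 1 base in *Lsm5*, and *Lsm3* and *Lsm11* show none of the 6 motifs. The other members with NRF1 letters were *Hnrnph1*, *Srsf11* and *Lsm10*, of which *Lsm10* was among the members below 0 in any of the cell group comparisons. Such matches describe letters and are not sites of binding. The windows of the background were not limited to genes expressed here. A share over the expressed genes was not counted, so these differences cannot be read as a trait of the members.

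Between the libraries, 55 of the 63 expressed members kept the sign of their log2 ratio in the low, S and G2M groups. Among them were all 33 with at least 10 CPM and a log2 ratio past 0.5 in size. The share over all expressed genes was not counted, so the 55 cannot be read as a trait of the members. The 33 were picked by size from the same libraries, so their sign in these groups was largely set beforehand. Groups of the same name have other limits in each library, so these ratios do not compare cells matched for cell cycle state. *Hnrnpl* had log2 ratios of 1.52, 1.51 and 1.52 in the low, S and G2M groups, and *Srsf4* -1.45, -1.32 and -1.38. *Snrpa1* had -2.41, -1.94 and -1.64. The 8 whose sign varied were *Hnrnpa1*, *Hnrnpa2b1*, *Hnrnpul2*, *Lsm3*, *Lsm5*, *Lsm7*, *Sf3b5* and *Snrpf*. *Lsm3* had the widest range, with 0.82 in the low group, -0.18 in the S group and 0.33 in the G2M group. *Lsm2* had 1.08, 0.28 and 0.54. In cells without a UMI of *Mki67* or *Top2a*, markers of dividing cells, the log2 ratios were 0.96 for *Lsm3*, 1.05 for *Lsm2* and 0.61 for *Lsm8*, against 0.19, 0.49 and 0.37 over all cells. This selection depends on depth and is stricter in PC20, whose median cell held more UMIs, so the cells left are not matched between the libraries.

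**Figure D4:**
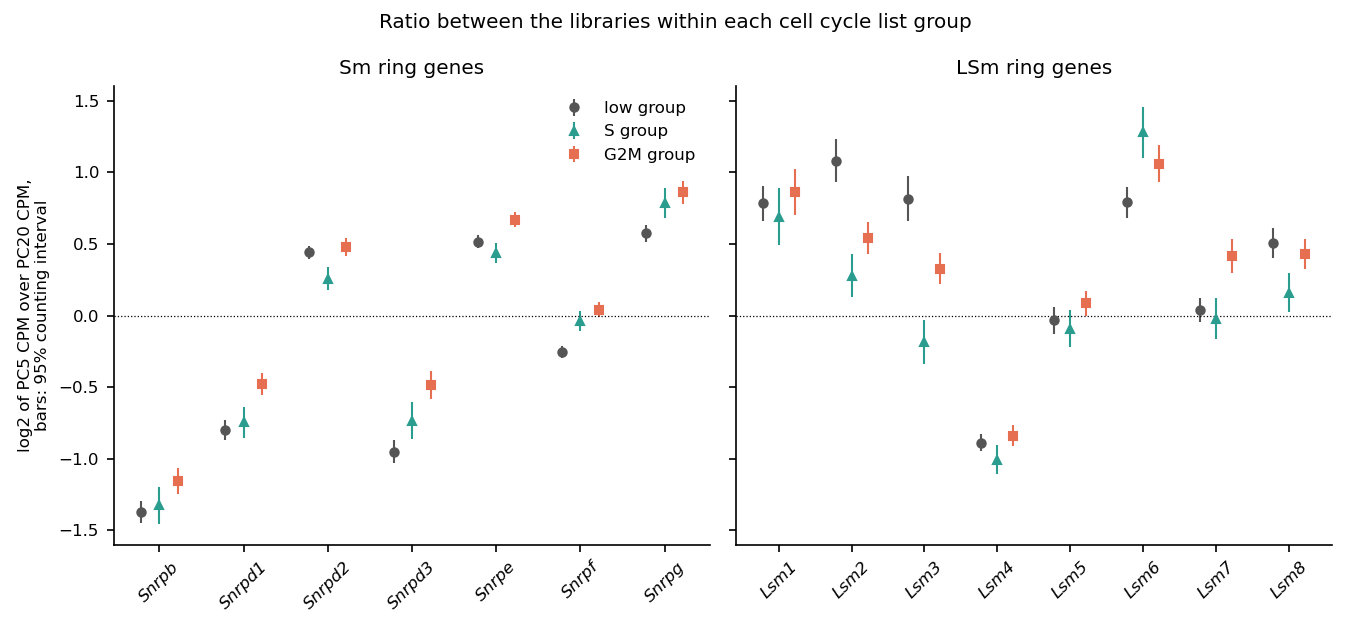
Log2 ratio, PC5 over PC20, for the 7 Sm ring genes (left) and 8 LSm ring genes (right) within the low, S and G2M groups of thinned cells, with 95% counting intervals. The order of the Sm ring genes is nearly alike in the 3 groups, while *Lsm2* and *Lsm3* lie highest in the low group.

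Other splicing genes were read from lists by function, which were chosen with earlier results of these data known. Of the other spliceosome genes 69 were expressed, with 16 higher in PC5 and 53 in PC20 and a median log2 ratio of -0.53. That is 76.8% higher in PC20, against 51.1% of all expressed genes. Below -1 were 17 of them (24.6%), against 19.1%, and above 1 were 0, against 17.9%. The lowest were *Cwc27* at -2.17, a spliceosomal cyclophilin, *Magohb* at -1.90, an exon junction complex subunit, and *Snrnp48* at -1.85, a minor spliceosome protein. The highest were *Snrnp25* at 0.92, also of the minor spliceosome, *U2af2* at 0.52, which binds the polypyrimidine tract, and *Luc7l3* at 0.46.

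All 6 expressed kinases of SR proteins, which phosphorylate their RS domains, were on the PC20 side. *Clk3* had 10.98 CPM in PC5 against 37.4 CPM in PC20, a log2 ratio of -1.77. *Clk2* and *Clk4* had log2 ratios of -1.22 and -1.19, *Clk1* -0.78, *Srpk2* -0.38 and *Srpk1* -0.11. The genes of this list thus had the same direction but a wide range. *Srpk3*, which is restricted to muscle, had 0 UMIs in PC5 and 5 in PC20.

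Genes of snRNP assembly leaned less to one side, with 5 of 15 higher in PC5, 10 in PC20 and a median of -0.30. *Gemin2*, which holds the Sm proteins for the SMN complex, had 4.77 CPM in PC5 against 18.9 CPM in PC20, a log2 ratio of -1.99. *Gemin6* was at -0.88 and *Smn1*, the mouse gene of spinal muscular atrophy, at -0.60. *Gemin7*, whose protein pairs with that of *Gemin6*, was on the other side with 100.7 and 41.1 CPM and a log2 ratio of 1.29, as were *Wdr77* at 0.62 and *Clns1a* at 0.24.

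Regulators of alternative splicing outside the members had a median near 0, at 0.10, with 15 of 29 higher in PC5 and 14 in PC20. *Taf15*, which encodes an RNA-binding protein, had 42.7 CPM in PC5 against 237.1 CPM in PC20, a log2 ratio of -2.47. *Mbnl2* was at -0.84 and *Tial1* at -0.73. *Mbnl3*, a muscleblind gene, had 1395 UMIs in PC5 against 2 in PC20, a log2 ratio of 9.22 with an interval from 7.37 to 12.27. *Ptbp3*, the polypyrimidine tract binding protein of blood and other tissues, was at 1.37 with 159.4 and 61.8 CPM, and *Tardbp*, which encodes TDP-43, at 0.94. Epithelial and neural regulators such as *Esrp1*, *Rbfox1* and *Rbfox3* were at 3 or fewer UMIs in both libraries.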

How the data were processed

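Droplet 3′ libraries (10x Genomics v3.1) of cultured mouse brain PCs, 1 at passage 5 and 1 at passage 20, were analysed and grouped by passage as labelled. The deposited values are UMI counts per gene and barcode, made by the authors with Cell Ranger (5.0 per the submitters' processing notes, 5.0.1 per the file headers) on mm10, with no normalization. Barcodes above 1000 genes and below 20% mitochondrial UMIs entered, no doublets were removed, and CPM and ratios were computed in Python 3.11.15 with scipy 1.17.1. Genes were placed on GENCODE M21. Where a library held 0 UMIs of an expressed gene, the floor of 3 UMIs over the library was used, for 30 genes. Intervals are Poisson, conditional binomial or Clopper-Pearson, and the computation was tested on simulated data. No p-value was computed, since cells are not replicates. The genes named are members with at least 10 CPM and a log2 ratio past 0.5, the most abundant of each family, the Sm ring, SF3b, 3 extremes at each end of every other list, and members of a family described. Members and lists were chosen with earlier results of these data known. Alternatives were other cell filters, thinning, scalings, detection limits, a pseudocount and other cycle groups.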

Additional observations from a re-analysis of the deposited data

How the results depend on the processing

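No paired analysis was possible because each passage has 1 library. The counts of members by size stayed within 1.5 times of those given under every alternative run. The genes behind these counts varied in part. In cells without a UMI of *Mki67* or *Top2a*, *Hnrnph1* was at 0.92, *Lsm2* at 1.05 and *Hnrnpc* at -1.08. With thinned cells *Lsm6* was at 1.01. The share of all genes below -1 fell from 19.1% to 14.1% where genes needed UMIs in 10% of the cells of both libraries. All 264 values of the 33 members past 0.5 under 8 other settings kept their sign. Some of these settings could not turn it. The pseudocount keeps every sign, and centring or a total without mitochondrial and ribosomal protein genes shifts all genes by the same small amount. *Hnrnpa2b1*, *Hnrnpul2* and *Lsm5*, which lay near 0, were the members that changed sign under any of the 7 settings that scale or select cells. The 6 SR protein kinases stayed below 0 under the same 7 settings. The highest of them was practically at 0, with -0.004, in cells without a UMI of *Mki67* or *Top2a*. The median log2 ratio of the members moved most when means over cells scaled to 10000 UMIs were used, to -0.30, and when every gene with UMIs in both libraries entered, to -0.17. The median of all genes ran from -0.04 to 0.07 over the settings. Counts by cell cycle group also stayed within 1.5 times with the top 10% of cells and with all UMIs of the same cells. Counting error is small at these levels, and the spread between cultures is unknown.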
